A study of Mus musculus with 12 samples.

Results

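Border-associated macrophages are the resident macrophages of the meninges, the perivascular spaces and the choroid plexus, and they are set apart from the microglia of the brain parenchyma by a small group of genes. 8 of these genes were followed here across cultured mouse microglia: Folr2, Stab1, Mrc1, Lyve1 and Cd163, which encode surface receptors, Pf4, which encodes a secreted chemokine, and F13a1 and Cbr2, which encode enzymes. The rule names the members by symbol and sets no threshold on their values, and each had exactly 1 probe set that carried its symbol alone. The list was chosen with earlier results of these data known. Counts of members called, set beside shares of all genes below, are therefore a description and not a test of the list. The members make up 8 of the 19938 genes with a probe set of their own, and 7 of them were bright enough to be among the 15273 genes tested. A gene was tested when its mean over the 12 arrays lay above 5.36 on the log2 signal scale, the 30th percentile of all probe sets. Cd163, with a mean of 5.01, did not reach that limit, and Lyve1, with a mean of 5.36, passed it by 0.0015.

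The study exposed primary mouse microglia to ischemic or control conditions and measured total RNA on Affymetrix Mouse Gene 1.0 ST arrays. There were 4 groups of 3 arrays. KO-labelled ischemia was microglia with the genotype label TLR4 knockout, kept hypoxic or hypoglycemic for 24 h and then returned to normal conditions for 24 h. KO-labelled control was the same genotype kept normoxic or normoglycemic throughout, WT ischemia was wild-type microglia given the ischemic period, and WT control was wild-type microglia without it. Every group, controls included, passed through the same last 24 h, so no array shows cells at the end of the ischemic period itself. The labels give neither the knockout allele, the strain nor the age of the animals. They also do not state that replicates were independent cultures, so the spread behind each p-value may be technical.

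3 points about the labels bear on every result. The Tlr4 signal itself was 8.39 to 8.97 in the 6 KO-labelled arrays, against 8.54 to 9.02 in the 6 WT arrays, and the position of its probe set relative to the deleted part of the gene is not known, so the genotype is given here as labelled. The WT ischemia arrays were placed in their group by their titles and the key of the series, while their source name reads as the control. The extraction text names myocytes, whereas all other labels name microglia. General macrophage markers were bright on every array, with a mean over the 8 listed genes of 11.5 to 12.1, and Csf1r, the receptor for colony-stimulating factor 1, averaged 12.27. Of 11 measured markers of homeostatic microglia, 10 passed the limit. The brightest were Olfml3 at a mean of 9.44, Fcrls at 9.24 and Cx3cr1, the fractalkine receptor, at 8.95. P2ry12 at 5.75 and Siglech at 5.85 lay close to the limit, and Gpr34 lay below it.

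In the brain, border-associated macrophages sit along vessels and membranes, take up material from blood and cerebrospinal fluid, and carry receptors for mannose, hyaluronan, haemoglobin and folate at higher levels than parenchymal microglia do. Because RNA was measured in bulk, fewer cells of one kind and less RNA per cell cannot be told apart in any value below.

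3 members, Folr2, Stab1 and Pf4, moved furthest with ischemia, and their upstream sequences are shown so that the members that moved can be read side by side. RefSeq start sites of build GRCm38.p6 gave windows for 7 of the 8 members, 9 windows in all. Each printed stretch is the 250 bases before a start, read 5′ to 3′ on the gene's strand. Folr2 has a pair of starts, and their stretches are chr7:101857191-101857440 and chr7:101845332-101845581 on the minus strand. The Stab1 stretch is chr14:31168642-31168891 on the minus strand, and the Pf4 stretch is chr5:90772185-90772434 on the plus strand. Capitals mark matches to the motifs described in the next paragraph.
Folr2, first start: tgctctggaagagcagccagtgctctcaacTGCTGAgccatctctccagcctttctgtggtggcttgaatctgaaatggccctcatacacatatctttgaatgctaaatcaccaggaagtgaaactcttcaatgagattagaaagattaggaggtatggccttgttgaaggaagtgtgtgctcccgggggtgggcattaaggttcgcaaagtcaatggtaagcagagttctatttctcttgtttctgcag
Folr2, second start: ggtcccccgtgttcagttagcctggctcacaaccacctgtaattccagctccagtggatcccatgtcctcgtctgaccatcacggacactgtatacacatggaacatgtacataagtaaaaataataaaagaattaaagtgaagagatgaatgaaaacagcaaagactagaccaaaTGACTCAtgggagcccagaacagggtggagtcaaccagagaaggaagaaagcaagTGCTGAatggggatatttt
Stab1: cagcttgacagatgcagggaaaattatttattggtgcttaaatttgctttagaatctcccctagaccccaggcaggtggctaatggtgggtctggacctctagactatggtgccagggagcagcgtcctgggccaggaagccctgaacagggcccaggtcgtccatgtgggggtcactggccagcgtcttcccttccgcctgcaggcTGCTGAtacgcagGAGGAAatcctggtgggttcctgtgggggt
Pf4: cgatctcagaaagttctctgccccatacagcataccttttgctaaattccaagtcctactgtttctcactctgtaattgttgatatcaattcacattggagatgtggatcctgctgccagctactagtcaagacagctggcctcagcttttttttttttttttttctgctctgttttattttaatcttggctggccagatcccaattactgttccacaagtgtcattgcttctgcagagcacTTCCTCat

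4 motifs were searched on both strands in the 300 bases from 250 before to 50 after each start. GAGGAA, the core bound by the myeloid factor PU.1, was found in 6 of 9 windows of the members, against 28.3% of all 32851 mouse windows. TGCTGA, the short site bound by MAF factors, was found in 4 of 9 windows, against 19.5% of all windows. TGANTCA, the AP-1 site, was found in 1 window, against 7.81%, and an interferon response element in none of the 9, against 3.44%. The motifs do not overlap one another in the printed stretches. Stab1 held a MAF site at positions -43 to -38 and a PU.1 core at -30 to -25, counted from the start. Pf4 held the PU.1 core only, read as TTCCTC on the printed strand. The second Folr2 start had an AP-1 match at -74 to -68 and a MAF site at -19 to -14, and the first had a MAF site alone. These are letter matches in short windows and say nothing about binding in these cells.

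**Figure D1:**
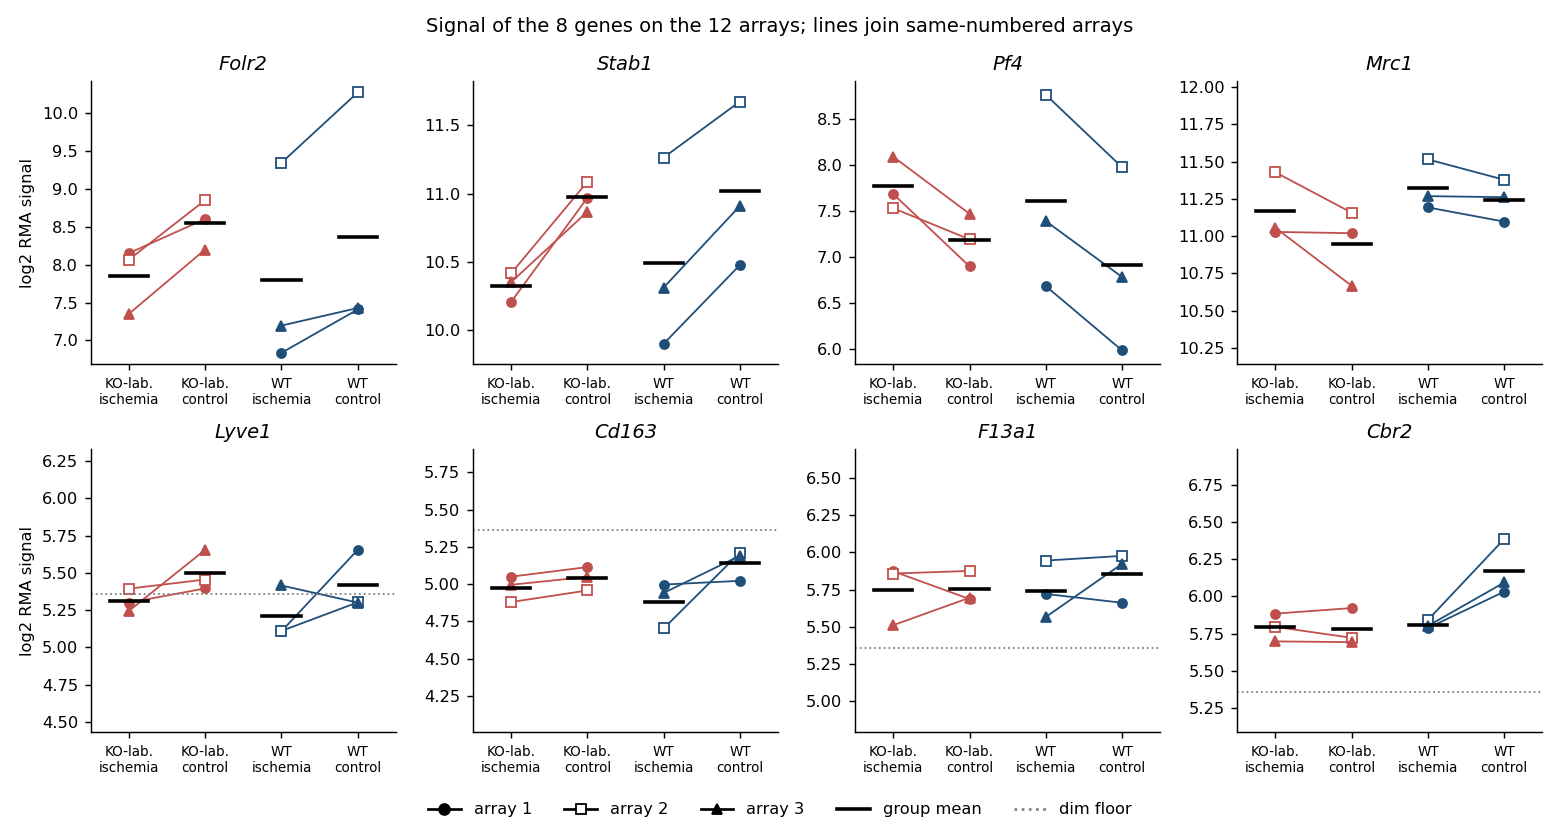
Log2 signal of the 8 genes (vertical axis, 1 panel per gene) on the 12 arrays, with KO-labelled ischemia, KO-labelled control, WT ischemia and WT control from left to right. Points are arrays, thin lines join arrays with the same number in a genotype, black bars are means of 3 arrays, and the dotted line is the limit of 5.36. Stab1 and Folr2 lines run lower in ischemia and Pf4 lines run higher, while array 2 of both WT groups stands above its neighbours for these 3 genes.

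Folr2, which encodes folate receptor beta, a surface protein that takes up folate, was lower after ischemia in 6 of 6 pairs of same-numbered arrays. Its log2 signal was 8.15, 8.06 and 7.35 on KO-labelled ischemia arrays 1, 2 and 3, against 8.60, 8.85 and 8.20 on the KO-labelled control arrays. In wild-type cells it was 6.84, 9.34 and 7.20 after ischemia, against 7.41, 10.27 and 7.43 in the control. The KO-labelled groups did not overlap, whereas the WT groups did, since array 2 of each WT group was far above arrays 1 and 3. The group means were 7.85 ± 0.44 in KO-labelled ischemia, 8.55 ± 0.33 in KO-labelled control, 7.79 ± 1.35 in WT ischemia and 8.37 ± 1.64 in WT control (SD, n = 3 each). The order of the means was KO-labelled control, WT control, KO-labelled ischemia and WT ischemia, and each difference between neighbours was smaller than the SD of the WT group in it.

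Stab1, which encodes stabilin-1, a scavenger receptor of macrophages and sinusoidal endothelium, was also lower after ischemia in every pair. Its signal was 10.21, 10.42 and 10.35 in KO-labelled ischemia, against 10.97, 11.09 and 10.87 in KO-labelled control. The WT ischemia arrays gave 9.90, 11.26 and 10.31, against 10.48, 11.68 and 10.91 in WT control. The KO-labelled arrays of each condition lay close together and the 2 conditions were clear of each other, whereas the WT groups overlapped through the height of array 2. The means were 10.32 ± 0.11 and 10.97 ± 0.11 in KO-labelled ischemia and control, and 10.49 ± 0.70 and 11.02 ± 0.61 in WT ischemia and control (SD, n = 3 each). In order, WT control and KO-labelled control stood highest, WT ischemia next and KO-labelled ischemia lowest. Each difference between neighbours was smaller than the SD of the WT group in it, but WT ischemia lay further from both KO-labelled means than their SD of 0.11.

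Pf4, which encodes platelet factor 4, a CXC chemokine stored in platelet granules and made by border-associated macrophages, went the other way and was higher after ischemia in 6 of 6 pairs. It read 7.69, 7.53 and 8.09 in KO-labelled ischemia, against 6.90, 7.19 and 7.47 in KO-labelled control. It read 6.68, 8.77 and 7.39 in WT ischemia, against 5.98, 7.98 and 6.78 in WT control. Again the KO-labelled groups were clear of each other and the WT groups overlapped. The means were 7.77 ± 0.29 and 7.19 ± 0.29 in KO-labelled ischemia and control, and 7.61 ± 1.06 and 6.91 ± 1.00 in WT ischemia and control (SD, n = 3 each). Both ischemia means exceeded both control means, by less than the SD of the WT groups. Platelet genes other than Pf4 were dim: Ppbp, the other abundant platelet chemokine, lay below the limit, and the mean over the 5 measured platelet markers was 6.04 to 6.24 in KO-labelled ischemia, 6.07 to 6.23 in KO-labelled control, 5.87 to 6.06 in WT ischemia and 6.05 to 6.13 in WT control. None of the 4 tested platelet markers passed in any comparison of ischemia with control, in the limma fit with or without pairs. Without pairs that fit called at most 0.0131% of all genes. With pairs it called 0.648% in KO-labelled cells, 3.73% in WT cells and 12.5% in the mean over both. Of the 4 markers, 3 were lower in KO-labelled ischemia and 4 in WT ischemia. The part of platelets in the Pf4 values was not tested.

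Mrc1, which encodes the mannose receptor CD206, an endocytic receptor for glycoproteins with terminal mannose, was bright on every array and moved little. Its signal was 11.03, 11.43 and 11.06 in KO-labelled ischemia, against 11.02, 11.16 and 10.67 in KO-labelled control, and 11.19, 11.51 and 11.27 in WT ischemia, against 11.10, 11.38 and 11.26 in WT control. The ischemia array was the higher one in all 6 pairs, by 0.01 to 0.39, but the groups overlapped in both genotypes. Mrc1 had a SD of 0.23 over all 12 arrays, while Folr2 had 1.00, Pf4 0.74 and Stab1 0.51.

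The other surface receptors were dim. Lyve1, which encodes a hyaluronan receptor of lymphatic endothelium and of some perivascular macrophages, lay between 5.11 and 5.65, and 6 of 12 arrays were above the limit. Its arrays read 5.30, 5.39 and 5.24 in KO-labelled ischemia, against 5.40, 5.45 and 5.65 in KO-labelled control, and 5.11, 5.11 and 5.41 in WT ischemia, against 5.65, 5.30 and 5.30 in WT control. Its KO-labelled groups touched without overlapping and its WT groups overlapped. Cd163, which encodes the scavenger receptor for haemoglobin bound to haptoglobin, lay between 4.70 and 5.21, below the limit on all 12 arrays. Cd163 was lower in the ischemia array of every pair, with changes of -0.02 to -0.51, on a probe set that never rose above the limit.

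The 2 enzymes were also near the low end. F13a1, which encodes the A subunit of coagulation factor XIII, the transglutaminase that cross-links fibrin, ranged from 5.51 to 5.98, and its group means were 5.75 ± 0.20 in KO-labelled ischemia, 5.75 ± 0.11 in KO-labelled control, 5.74 ± 0.19 in WT ischemia and 5.85 ± 0.17 in WT control (SD, n = 3 each). All 4 groups overlapped. Cbr2, which encodes carbonyl reductase 2, read 5.88, 5.80 and 5.70 in KO-labelled ischemia, against 5.92, 5.72 and 5.69 in KO-labelled control. In wild-type cells Cbr2 read 5.79, 5.84 and 5.80 after ischemia, against 6.03, 6.39 and 6.09 in the control. The 3 WT control arrays were thus the highest of the 12, with no overlap with WT ischemia or with KO-labelled control.

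**Figure D2:**
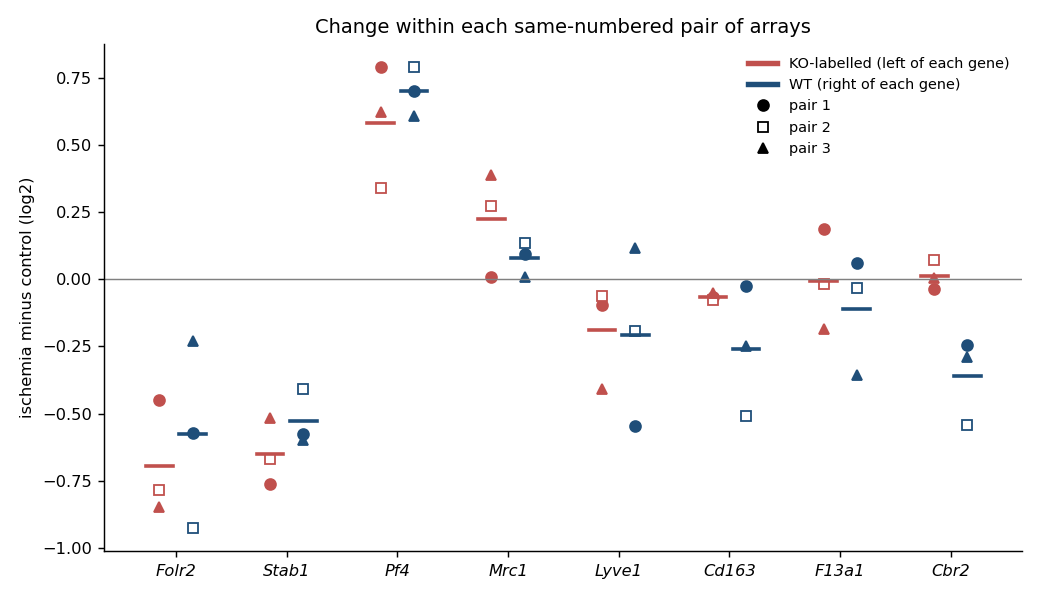
Change in log2 signal within each pair of same-numbered arrays, ischemia minus control, for the 8 genes, with KO-labelled pairs left of WT pairs. Each point is 1 pair and the horizontal line is no change. Folr2 and Stab1 lie below the line and Pf4 above it in all 6 pairs, and the WT pairs of Pf4 span 0.61 to 0.79.

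Within WT pairs, the changes of these 3 genes were more even than their levels. In WT pairs 1, 2 and 3, Stab1 changed by -0.58, -0.41 and -0.60, and the SD of these changes was 0.10, while the SD between arrays was 0.70 in WT ischemia and 0.61 in WT control. Pf4 changed by 0.70, 0.79 and 0.61, with a SD of 0.09, while its arrays had SDs of 1.06 in WT ischemia and 1.00 in WT control. Folr2 changed by -0.57, -0.93 and -0.23, with a SD of 0.35, while its arrays had SDs of 1.35 in WT ischemia and 1.64 in WT control. The pair changes thus spread less than the arrays of either WT group for all 3 genes.

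In the KO-labelled pairs, Folr2 changed by -0.45, -0.78 and -0.85, with a SD of 0.21, while its arrays had SDs of 0.44 in KO-labelled ischemia and 0.33 in KO-labelled control. Pf4 changed by 0.79, 0.34 and 0.62, with a SD of 0.23, while its arrays had a SD of 0.29 in each group. Stab1 changed by -0.76, -0.67 and -0.52, with a SD of 0.12, close to the 0.11 between its arrays in each group. Over all genes tested, the median SD of pair changes was 0.16 in KO-labelled cells and 0.15 in WT cells, and the median SD between control arrays was 0.16 in KO-labelled cells and 0.13 in WT cells.

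Among the 7 members tested, 4 had the same sign in all 6 pairs, 2 lower and 2 higher. Over all 15273 genes, 17.1% had 1 sign in all 6 pairs, 6.36% lower and 10.7% higher. In the KO-labelled comparison, 4 of 7 members (Folr2, Stab1, Pf4 and Lyve1) had groups that did not overlap, against 14.3% of all genes. In the WT comparison, only Cbr2 did among the 7 tested, against 21.7% of all genes.

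The main test was a limma fit of the 4 groups without pairs, with Benjamini-Hochberg adjustment over 15273 genes, and no member passed an adjusted p of 0.05 in it. Between WT ischemia and WT control it called 0 of 7 members and 0.0131% of all genes, and at an unadjusted p under 0.05 it found 1 member, Cbr2, and 2241 genes. Between KO-labelled ischemia and control it called 0 members and 0% of genes, with 0 members and 1334 genes at an unadjusted p under 0.05. For Folr2 in wild-type cells this fit gave a log2 change of -0.58 with a 95% interval of -2.15 to 1.00 and an adjusted p of 0.726. Leaving out WT control array 2 turned that change to 0.37, and leaving out WT ischemia array 2 made it -1.35. Stab1 had an interval of -1.22 to 0.16 (adjusted p = 0.435) and Pf4 one of -0.39 to 1.79 (adjusted p = 0.507) in the same fit.

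The same comparison was then fitted with the same-numbered arrays of a genotype as a block, because arrays with the same number deviated together from their group means in both genotypes. This pairing was inferred from the same arrays and is not stated in the labels. In this paired limma fit, 3 of 7 members passed in wild-type cells, 2 lower and 1 higher, against 3.73% of all genes, 0.74% lower and 2.99% higher. Folr2 fell by 0.58 on the log2 scale (SE 0.13, 1.49-fold lower, adjusted p = 0.0258). Stab1 fell by 0.53 (SE 0.096, 1.44-fold lower, adjusted p = 0.00958). Pf4 rose by 0.70 (SE 0.10, 1.62-fold higher, adjusted p = 0.00249). Each of the 3 had the same sign in all 3 WT pairs. The Folr2 call was lost without WT pair 1 (adjusted p = 0.141) or WT pair 2 (adjusted p = 0.130), and the Stab1 call without WT pair 1 (adjusted p = 0.0957) or WT pair 3 (adjusted p = 0.0664). The Pf4 call was kept whichever pair was left out, with adjusted p no higher than 0.0216.

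In KO-labelled cells the paired fit called the same 3 of 7 members, 2 lower and 1 higher, against 0.648% of all genes, 0.111% lower and 0.537% higher. Folr2 fell by 0.69 on the log2 scale (SE 0.13, 1.62-fold lower, adjusted p = 0.0258). Stab1 fell by 0.65 (SE 0.096, 1.57-fold lower, adjusted p = 0.0130), and Pf4 rose by 0.58 (SE 0.10, 1.5-fold higher, adjusted p = 0.0249). Each of these calls was lost when KO-labelled pair 2 or pair 3 was left out, with adjusted p of 0.248 and 0.220 for Folr2, 0.135 and 0.0795 for Stab1, and 0.106 and 0.158 for Pf4. The sign stayed the same in all of these fits. The error of this fit is pooled over both genotypes, and a paired fit of the 6 KO-labelled arrays by themselves gave adjusted p of 0.0190 for Folr2, 0.0190 for Stab1 and 0.0430 for Pf4.

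The change averaged over both genotypes, a comparison added after the data were seen, gave the narrowest errors. In the paired fit, Folr2 changed by -0.63 (SE 0.090, adjusted p = 0.00196), Stab1 by -0.59 (SE 0.068, adjusted p = 0.000593) and Pf4 by 0.64 (SE 0.074, adjusted p = 0.000593). These 3 of 7 members stand against 12.5% of all genes called, 3.35% lower and 9.11% higher, and each of the 3 calls held in 6 of 6 fits that left out a pair. Without pairs, which called 0.00655% of all genes and none of the 7, the adjusted p-values were 0.463, 0.184 and 0.304. Mrc1 changed by 0.15 (adjusted p = 0.155), Lyve1 by -0.20 (adjusted p = 0.132), Cbr2 by -0.17 (adjusted p = 0.103) and F13a1 by -0.06 (adjusted p = 0.614) in the paired fit. Cd163, fitted only when the limit on dim probe sets was dropped, changed by -0.16 (adjusted p = 0.187).

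**Figure D3:**
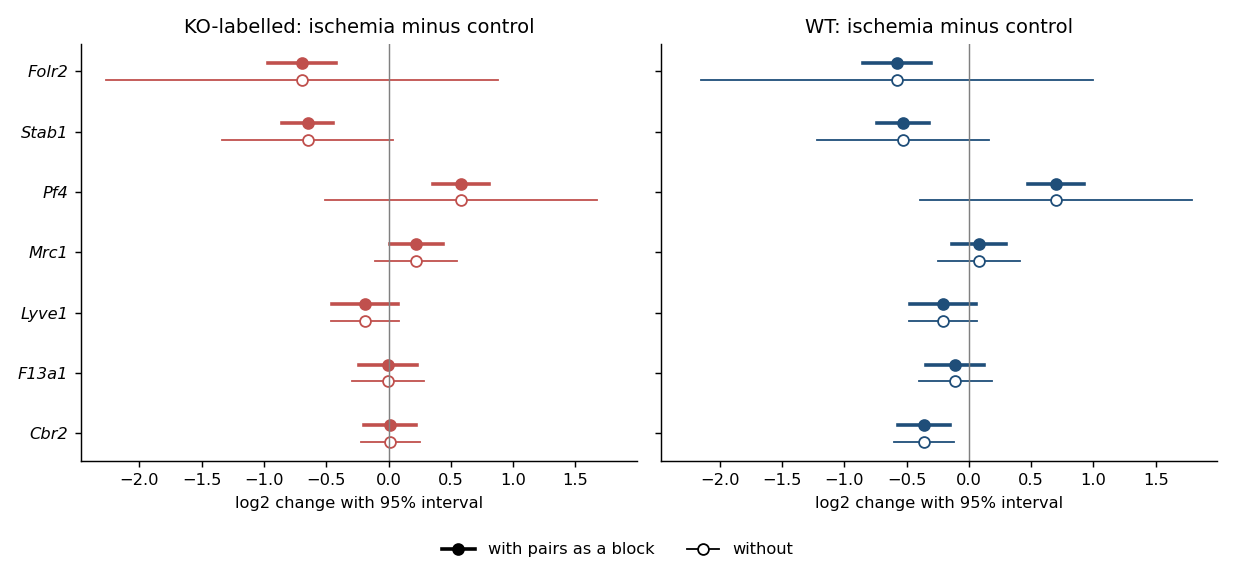
Log2 change with ischemia for each gene (vertical list) with its 95% interval (horizontal axis, log2), in KO-labelled cells in the left panel and WT cells in the right. Filled points are the fit with pairs as a block and open points the fit without. For Folr2 in WT cells the interval runs from -0.85 to -0.30 with pairs and from -2.15 to 1.00 without.

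The genotypes were compared next, in the control condition and after ischemia. Same-numbered arrays of the 2 genotypes did not deviate together in a steady way, with correlations of -0.33 to 0.33, so these comparisons were fitted without pairs. In the limma fit of KO-labelled control against WT control, 0 of 7 members passed, against 0.0589% of all genes, and 1 member and 1091 genes had an unadjusted p under 0.05. That member was Cbr2, at 5.78 ± 0.12 in KO-labelled control and 6.17 ± 0.19 in WT control (SD, n = 3 each), a log2 difference of -0.39 (95% interval -0.63 to -0.15, adjusted p = 0.540). Cbr2 was the only one of the 7 whose groups did not overlap, against 9.89% of all genes. Mrc1 differed by -0.30 (-0.63 to 0.03, adjusted p = 0.705). Folr2 differed by 0.18, with an interval of -1.39 to 1.75, Stab1 by -0.05, with -0.73 to 0.64, and Pf4 by 0.27, with -0.82 to 1.37. The sign of these last 3 depended on single arrays, since leaving out WT control array 1 gave -0.30 for Folr2 and -0.19 for Pf4, leaving out WT control array 3 gave -0.29 for Folr2, and leaving out WT control array 2 gave 0.28 for Stab1.

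After ischemia, 0 of 7 members passed between KO-labelled and WT cells, against 0.714% of all genes, and at an unadjusted p under 0.05 there were 0 members and 1276 genes. All 7 members overlapped between the groups, against 16.5% of genes that did not. The differences were 0.06 for Folr2 (95% interval -1.51 to 1.64), -0.17 for Stab1 (-0.86 to 0.52), 0.16 for Pf4 (-0.93 to 1.25), -0.15 for Mrc1 (-0.48 to 0.17) and -0.02 for Cbr2 (-0.26 to 0.22). The intervals for Folr2, Stab1 and Pf4 leave room for differences larger than the change with ischemia itself. The WT and KO-labelled comparisons of ischemia with control share their arrays with these genotype comparisons.

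Whether ischemia acted differently in the 2 genotypes was tested as an interaction. No member passed, against 0% of all genes without pairs and 0.308% with pairs, and at an unadjusted p under 0.05 there was 1 member, Cbr2, in either fit, with 443 genes without pairs and 1291 with pairs. In the paired fit, the effect in KO-labelled cells minus that in WT cells was -0.12 for Folr2 (95% interval -0.50 to 0.27), -0.12 for Stab1 (-0.41 to 0.17) and -0.12 for Pf4 (-0.43 to 0.20). For these 3 genes a difference between genotypes as large as the change with ischemia lies outside the paired interval. It lies inside the interval of the main fit without pairs. That interval was -2.34 to 2.11 for Folr2, -1.09 to 0.85 for Stab1 and -1.66 to 1.43 for Pf4. In the paired fit, Cbr2 had the smallest adjusted p of the 7, at 0.496, with an interaction of 0.37 (95% interval 0.08 to 0.67). Its paired change was 0.01 in KO-labelled cells (adjusted p = 0.956) and -0.36 in WT cells (SE 0.097, adjusted p = 0.0557), so it did not pass in either.

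Array 2 of the WT cells stood apart from arrays 1 and 3. It was the highest of the 3 arrays in both WT conditions for 6 of 8 members: Folr2, Stab1, Pf4, Mrc1, F13a1 and Cbr2. Among all genes tested, 22.4% were highest on WT array 2 in both conditions, against 12.0% for array 1 and 12.9% for array 3. Folr2 on array 2 was 4.42-fold above the next array in WT ischemia and 7.15-fold above it in WT control. For Pf4 the same ratio was 2.60-fold and 2.29-fold, and for Stab1 1.94-fold and 1.70-fold. The height of array 2 was therefore shared by genes that moved down and up with ischemia. Lyve1 was not high on array 2, at 5.11 in WT ischemia and 5.30 in WT control. Other macrophage genes moved with array 2 too. Cx3cr1 read 10.16 on WT ischemia array 2, against 8.54 and 8.91 on arrays 1 and 3, and 10.32 on WT control array 2, against 8.99 and 9.04. Fcrls, a microglial receptor-like gene, read 10.28 in WT ischemia and 10.89 in WT control on array 2, against 8.60 to 9.09 on the other 4 WT arrays. Chil3, a chitinase-like gene of alternatively activated macrophages and monocytes, was low there, at 5.48 in WT ischemia and 4.76 in WT control, against 6.38 to 8.82 on the other WT arrays. The part of any difference in cell make-up in the height of array 2 was not tested.

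A wider list of 25 genes described in border-associated macrophages gave no common direction. It had 24 genes with a probe set of their own and 20 above the limit, and Cd209b, Cd209d, Cd209f and Clec10a, C-type lectins of macrophages and dendritic cells, were at or below it. In KO-labelled cells, 8 of 20 were higher while 12 were lower after ischemia, the median being -0.14 (all genes -0.00), and the paired fit called none. In WT cells, 9 were higher while 11 were lower, the median being -0.08 (all genes 0.01), and the paired fit called 3 higher and 3 lower, against the 3.73% of all genes. Without pairs none of the 20 was called in either genotype.

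**Figure D4:**
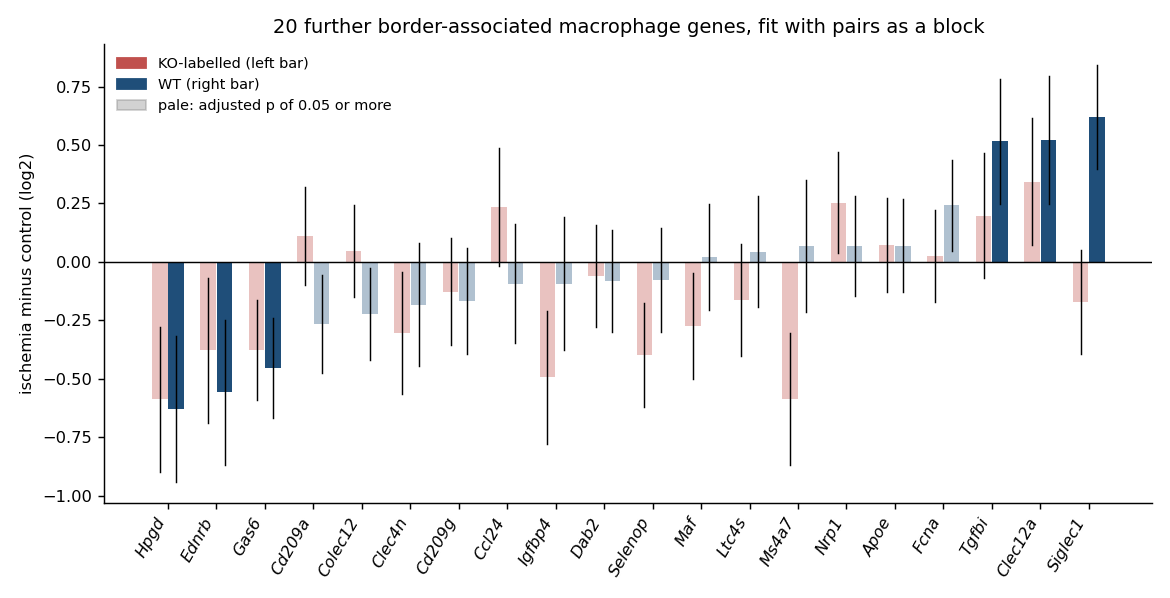
Paired log2 change with ischemia of 20 further border-associated macrophage genes, in KO-labelled cells on the left and WT cells on the right. Bars start at 0, lines are 95% intervals, and pale bars have an adjusted p of 0.05 or more. All KO-labelled bars are pale, and 6 WT bars are not, 3 on each side of 0.

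The 3 that rose in WT cells were Siglec1, Clec12a and Tgfbi. Siglec1 encodes CD169, a receptor for sialic acid on perivascular and other tissue macrophages, and it rose by 0.62 (SE 0.10, adjusted p = 0.00547). Clec12a, an inhibitory C-type lectin receptor, rose by 0.52 (adjusted p = 0.0373), and Tgfbi, a matrix protein induced by TGF-beta, by 0.52 (adjusted p = 0.0371). The 3 that fell were Hpgd, Gas6 and Ednrb. Hpgd, the enzyme that breaks down prostaglandins, fell by 0.63 (SE 0.14, adjusted p = 0.0304), Gas6, a ligand of the TAM receptors that bridge macrophages to dying cells, by 0.45 (adjusted p = 0.0259), and Ednrb, endothelin receptor B, by 0.56 (adjusted p = 0.0490). Leaving out a WT pair ended each of these calls: pair 1 for Siglec1 (adjusted p = 0.0601), Clec12a (0.330) and Gas6 (0.149), pair 2 for Tgfbi (0.188), Hpgd (0.155) and Ednrb (0.170), and pair 3 for Clec12a (0.121), Tgfbi (0.119), Hpgd (0.0961), Gas6 (0.160) and Ednrb (0.226). Leaving out KO-labelled pair 2, which enters the shared error, also ended those for Tgfbi (0.0568) and Ednrb (0.0705). With no filter on dim probe sets only Siglec1 of the 6 was still called, with adjusted p of 0.0712 for Tgfbi, 0.0716 for Clec12a, 0.0606 for Hpgd, 0.0522 for Gas6 and 0.0903 for Ednrb. In a paired fit of the WT arrays alone the calls of Tgfbi (0.0654), Clec12a (0.0567) and Ednrb (0.0617) were lost, and under quantile normalization those of Tgfbi (0.101) and Clec12a (0.0645).

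Averaged over both genotypes in the paired fit, 5 of the 20 passed, 2 higher and 3 lower, against 12.5% of all genes. The higher ones were Clec12a at 0.43 (adjusted p = 0.0120) and Tgfbi at 0.36 (adjusted p = 0.0230). The lower ones were Hpgd at -0.61 (adjusted p = 0.00456), Gas6 at -0.41 (adjusted p = 0.00482) and Ednrb at -0.47 (adjusted p = 0.0147). Hpgd and Gas6 passed in 6 of 6 fits without a pair, while Ednrb was lost without KO-labelled pair 2 (0.0525), Clec12a without WT pair 1 (0.0542) or KO-labelled pair 2 (0.0623), and Tgfbi without WT pair 2 (0.0665) or KO-labelled pairs 2 (0.0901) or 3 (0.0614). In KO-labelled cells alone, Hpgd changed by -0.59 (adjusted p = 0.0751) and Ms4a7, a membrane protein of border macrophages, by -0.59 (adjusted p = 0.0580).

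Siglec1 was the gene of the wider list whose change with ischemia differed between the genotypes. Its signal was 9.13, 9.82 and 9.98 in KO-labelled ischemia, against 9.24, 10.11 and 10.10 in KO-labelled control, so that the pairs changed by -0.11, -0.29 and -0.12. It was 11.19, 11.79 and 11.13 in WT ischemia, against 10.50, 10.99 and 10.76 in WT control, with pair changes of 0.69, 0.79 and 0.38. The WT pairs were all above 0 and the KO-labelled pairs all below it, but the KO-labelled change of -0.17 did not pass (paired adjusted p = 0.383), and without pairs it was 0.083 when KO-labelled ischemia array 1 was left out. The paired interaction was -0.79 (SE 0.15, adjusted p = 0.0371), and it passed in 1 of 6 fits that left out a pair, with adjusted p of 0.145 and 0.172 without WT pairs 1 and 2 and of 0.0765, 0.256 and 0.0802 without KO-labelled pairs 1, 2 and 3. KO-labelled ischemia was below WT ischemia (limma without pairs, log2 difference -1.72, SE 0.27, adjusted p = 0.0127), a call that was lost without KO-labelled ischemia array 1 (adjusted p = 0.0751). Tgfbi was also lower in KO-labelled than in WT cells, with a log2 difference of -1.29 after ischemia (adjusted p = 0.00136), which held when any array was left out. Between the controls the same fit gave -0.97 for Tgfbi (adjusted p = 0.0374) and -0.93 for Siglec1 (adjusted p = 0.570). The Tgfbi call between controls was lost under quantile normalization (adjusted p = 0.0624) and in fits that left out single arrays. It was also lost in a limma fit of only the groups compared (adjusted p = 0.314). Both genes thus had the lower mean in KO-labelled cells in the controls too. There the Siglec1 difference did not pass, and that of Tgfbi passed only in some fits.

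A second list held 10 genes for folate uptake and for scavenger receptors related to the members, of which 9 were tested and Cd5l was dim. The paired fit called none in KO-labelled cells, with a median change of 0.01, against 0.648% of all genes, and none in WT cells, with a median of -0.14, against 3.73%. Folr1, the folate receptor alpha gene, changed by 0.13 in KO-labelled cells (adjusted p = 0.603). Marco, a class A scavenger receptor, changed by -0.64 in WT cells (adjusted p = 0.0550), and Msr1, another of that class, by 0.41 in KO-labelled cells (adjusted p = 0.117) and 0.31 in WT cells (adjusted p = 0.153). In the mean over both genotypes Msr1 was 1 of the 9 called, higher by 0.36 (adjusted p = 0.0225), against 12.5% of all genes.

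Markers of other cells are given beside these results. The mean over 9 measured endothelial markers was 6.26 to 6.53 in KO-labelled ischemia, 6.16 to 6.41 in KO-labelled control, 6.30 to 6.38 in WT ischemia and 6.31 to 6.42 in WT control. Of the 9, 6 were above the limit, Flt1, Kdr, Prox1, Stab2, Cldn5 and Flt4, and Pecam1, Cdh5 and Tek lay at or below it. In the paired fit Cldn5, a tight junction gene of brain endothelium, fell by 0.41 in WT cells (adjusted p = 0.0416), Flt1 rose in both genotypes, and Kdr, a receptor for vascular endothelial growth factor, was higher by 0.36 in the mean over both (adjusted p = 0.0350). Stab1 and Lyve1 are also expressed by endothelium, and its part in their values was not tested.

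The mean over 7 measured monocyte markers was 5.99 to 6.33 in KO-labelled ischemia and 5.96 to 6.16 in KO-labelled control, against 6.77 to 7.19 in WT ischemia and 6.11 to 6.45 in WT control. Chil3, 1 of the 3 monocyte markers above the limit, rose by 1.2 in WT cells in the paired fit (SE 0.13, adjusted p = 0.000277). All 3 were higher after ischemia in both genotypes, with medians of 0.46 in KO-labelled cells and 0.45 in WT cells. Ms4a4c, whose mean over 12 arrays of 5.01 left it untested, read 5.97, 9.33 and 6.25 in WT ischemia, against 4.14, 5.92 and 4.33 in WT control, and 3.76 to 4.32 on the 6 KO-labelled arrays. Ccr2, Plac8 and Gm9733 also lay at or below the limit, while Chil3, F10 and Itga4 lay above it. The part of monocytes in the change of Pf4 or of the other members was not tested.

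Lists of other brain cells had most of their tested genes lower after ischemia, with none of them called in either genotype alone. The paired fit called 0.648% of all genes in KO-labelled cells and 3.73% in WT cells. Over all genes the median change was -0.00 in KO-labelled cells and 0.01 in WT cells. The means of these lists ran from 5.34 to 6.75, beside the limit of 5.36, whereas Stab1 averaged 10.70 and Folr2 8.14. Of 7 tested fibroblast and mural markers, 5 were lower in KO-labelled ischemia, with a median of -0.11, and 7 were lower in WT ischemia, with a median of -0.32. Their mean was 5.96 to 6.12 in KO-labelled ischemia, 6.03 to 6.20 in KO-labelled control, 5.87 to 6.06 in WT ischemia and 6.04 to 6.62 in WT control, and Dcn, Lum and Rgs5 lay at or below the limit. The 6.62 was WT control array 1 alone, against 6.04 and 6.08 on WT control arrays 2 and 3. Of 5 tested astrocyte markers, 4 were lower in each genotype, with medians of -0.13 in KO-labelled cells and -0.26 in WT cells, and Aqp4 and Gja1 lay at or below the limit. All 4 oligodendrocyte markers were lower in both genotypes, with medians of -0.17 in KO-labelled cells and -0.07 in WT cells. All 3 tested neuron markers were lower too, with medians of -0.09 in KO-labelled cells and -0.12 in WT cells, and Snap25 and Tubb3 lay at or below the limit. The mean signal of the astrocyte list was 5.92 to 6.04 in KO-labelled ischemia, 5.97 to 6.17 in KO-labelled control, 5.90 to 6.11 in WT ischemia and 6.07 to 6.21 in WT control. For the oligodendrocyte list it was 6.24 to 6.35, 6.34 to 6.60, 6.47 to 6.61 and 6.51 to 6.75 in these groups in that order, and for the neuron list 5.47 to 5.68, 5.55 to 5.66, 5.34 to 5.66 and 5.57 to 5.82. In the mean over both genotypes Gfap, an astrocyte filament gene, changed by -0.25 (adjusted p = 0.0378) and Aldh1l1, an astrocyte enzyme gene, by 0.27 (adjusted p = 0.0390). The part of these cells in the lower Folr2 and Stab1 values was not tested.

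The genes whose centred signals were most like each of the 3 members over the 12 arrays were ranked by mean absolute difference on the log2 scale. Adcy3, an adenylyl cyclase, differed from Stab1 by 0.17, Hpgd by 0.18 and Mmp27 by 0.19 on average, where the median gene differed by 0.44. For Pf4 the nearest were Tmem171 at 0.32, Cst7, which encodes cystatin F, at 0.32 and Fcna, which encodes ficolin A, at 0.34, where the median gene differed by 0.58. For Folr2 they were Ccnd1, which encodes cyclin D1, at 0.38, Pltp at 0.40 and Sncaip at 0.41, where the median gene differed by 0.78. Among the members, Folr2 and Stab1 differed by 0.50, Pf4 and Stab1 by 0.62, and Folr2 and Pf4 by 0.67. The value for Pf4 and Stab1 lay above the median gene of either. That for Folr2 and Stab1 lay above the Stab1 median, and that for Folr2 and Pf4 above the Pf4 median, but both lay below the Folr2 median. F13a1, Cbr2, Mrc1 and Lyve1, at 0.35 to 0.44, had smaller distances to Stab1 than Folr2 and Pf4 had. The values were centred but not scaled, so the distance depends on the size of a gene's spread as well as on its pattern. Those 4 genes had SDs of 0.15 to 0.23 over the 12 arrays, against 1.00 for Folr2 and 0.74 for Pf4. Their smaller distances therefore do not show a pattern closer to that of Stab1. The 12 arrays share their pairs and the height of WT array 2, so these distances describe the arrays and carry no test.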

How the data were processed

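The 12 arrays, 4 groups of 3, were of the Affymetrix Mouse Gene 1.0 ST design and took total RNA of cells labelled as microglia. The authors deposited log2 values for each probe set. The submitters' processing notes name RMA and Affymetrix Expression Console 1.1 as the tools. RMA corrects background, equalises the distributions of arrays and summarises probes, so differences in total RNA cannot be seen. Array medians ran from 6.30 to 6.40, and arrays of a group correlated at 0.976 to 0.992. The number of arrays limits the precision.

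Of 35557 probe sets, 21789 carried 1 gene symbol in the platform annotation, 1621 carried several and 12147 were not listed. Symbols of 21698 were updated through Entrez identifiers, and the brightest probe set stood for a gene. The 15273 genes above the 30th percentile of signal (5.36) were fitted in R 4.3.3 by lmFit and eBayes of limma 3.58.1, all 4 groups together, with Benjamini-Hochberg adjustment. The main fit had no block, and the alternative had the array number within a genotype as a block. Same-numbered arrays deviated from their group means with correlations of 0.48 to 0.73 in WT and 0.32 to 0.49 in KO-labelled cells. Differently numbered arrays gave -0.62 to 0.40 in WT and -0.44 to 0.22 in KO-labelled cells. Between genotypes, same-numbered arrays gave -0.33 to 0.33, which reaches into the KO-labelled range. The numbers were taken to pair arrays within a genotype only, a choice made on these same arrays. The labels do not say what the numbers share. The scripts were tested on simulated data.

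The members and the gene lists were chosen with earlier results of these data known. Named from the wider lists were the 4 genes of largest change per list and comparison and those that passed the test. Alternatives were other filters, quantile normalization, median centring, a trended and robust variance prior, other blocks and leaving out each array or pair. Upstream sequences came from RefSeq on GRCm38.p6, and Lyve1 had no entry. No scanner files and no genome were used here.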

Additional observations from a re-analysis of the deposited data

Results flagged for a closer look

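1 result met the rule for a difference between genotypes. The change of Siglec1 with ischemia differed between KO-labelled and WT cells by -0.79 on the log2 scale in the paired limma fit (SE 0.15, adjusted p = 0.0371), with pair changes of -0.11, -0.29 and -0.12 in KO-labelled cells and 0.69, 0.79 and 0.38 in WT cells. Without pairs the adjusted p was 0.9996, and with no filter on dim probe sets the paired one was 0.0835. No member among the 8 met a rule. The groups hold 3 arrays, too few for a check of single outlying arrays.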

How the results depend on the processing

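The fit without pairs called no member, and the replicate block within genotype called 3 in KO-labelled cells, 3 in WT cells and 3 in the mean over both. Over all genes, the block moved the calls to 99 against 0 in KO-labelled cells, 570 against 2 in WT cells, 1904 against 1 for the mean and 47 against 0 for the interaction. A block of 3 levels shared by the genotypes gave 1, 7, 31 and 236 calls for KO-labelled cells, the mean, the control genotypes (main 9) and the ischemia genotypes (main 109), and called no member. Only the compared groups gave 1 call in WT and 0 for the control genotypes, and quantile normalization gave 1 in WT. Leaving out 1 array gave 1 to 79 calls in WT, 0 to 23 and 25 to 158 between control and ischemia genotypes, 0 to 1 for the interaction and 0 to 315 for the mean.

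With the block, leaving out a pair gave 143 to 767 calls in WT (members 1 to 3), 2 to 753 in KO-labelled cells (members 0 to 3), 20 to 49 for the interaction and 371 to 2889 for the mean. No filter gave 282, 36 (1 member), 27 and 1081 calls. Median centring gave 1173 in WT and 174 in KO-labelled cells, the 50th percentile gave 180 in KO-labelled cells, and quantile normalization 1157 for the mean.

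Signs turned as follows when 1 array was left out: in WT cells Folr2 (-1.35 to 0.37) and Mrc1 (-0.015 to 0.15), in KO-labelled cells F13a1 (-0.068 to 0.11), Cbr2 (-0.032 to 0.085) and Siglec1 (-0.46 to 0.083). Between control genotypes Folr2 ran from -0.30 to 1.13, Stab1 from -0.32 to 0.28 and Pf4 from -0.19 to 0.81. Between ischemia genotypes Folr2 ran from -0.41 to 0.84, Stab1 from -0.46 to 0.22, Pf4 from -0.31 to 0.73, F13a1 from -0.085 to 0.12 and Cbr2 from -0.064 to 0.029. The interaction ran from -1.07 to 0.66 for Folr2, -0.45 to 0.26 for Stab1, -0.65 to 0.46 for Pf4 and -0.099 to 0.12 for Lyve1, and the mean from -0.11 to 0.0016 for F13a1. With the block, leaving out a pair gave -0.19 to 0.014 for F13a1 in WT, -0.10 to 0.084 for F13a1 and -0.016 to 0.039 for Cbr2 in KO-labelled cells, and -0.11 to 0.0044 for F13a1 in the mean. The blocked interaction ran from -0.29 to 0.055 for Folr2, -0.22 to 0.0056 for Pf4, -0.15 to 0.18 for Lyve1 and -0.019 to 0.19 for F13a1. Quantile normalization turned Mrc1 in WT to -0.012, and F13a1 to 0.012 in KO-labelled cells and -0.030 between ischemia genotypes. Median centring turned F13a1 to 0.0087 and -0.027 in the same comparisons and the Lyve1 interaction to -0.027. None of these values had passed a test, and the cause was not tested. No filter ended the blocked calls of Folr2 (adjusted p = 0.0529 in WT, 0.0605 in KO-labelled cells) and Pf4 (0.0567 in KO-labelled cells), with more genes in the adjustment.

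The number of arrays limits the precision, and without pairs the SE in this fit was 0.72 for Folr2, 0.50 for Pf4 and 0.32 for Stab1. Lyve1, Cd163, F13a1 and Cbr2 had signals close to or below 5.36, where changes on the log2 scale can be understated.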

Other observations

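Some genes of the cell marker lists passed the paired limma fit beside the members. Over all genes this fit called 0.648% in KO-labelled cells and 3.73% in WT cells. It called 1 of 10 tested homeostatic microglia markers in each genotype, and 1 of 8 general macrophage markers in WT cells and 0 in KO-labelled cells. Of 6 tested endothelial markers, 1 was called higher in KO-labelled cells, and 1 higher and 1 lower in WT cells. Flt1, which encodes a receptor for vascular endothelial growth factor found on endothelium and macrophages, rose in both genotypes, by 0.55 in KO-labelled cells (SE 0.092, adjusted p = 0.0182) and 0.42 in WT cells (SE 0.092, adjusted p = 0.0255). Its signal was 10.21, 9.73 and 9.70 in KO-labelled ischemia, against 9.68, 9.21 and 9.10 in KO-labelled control, and 9.75, 9.91 and 9.45 in WT ischemia, against 9.25, 9.49 and 9.11 in WT control. All 6 pairs were higher after ischemia. Among the other endothelial markers, Kdr, Prox1, Stab2, Cldn5 and Flt4 were above the limit of 5.36, and Pecam1, Cdh5 and Tek were at or below it. Cx3cr1, the fractalkine receptor of microglia, changed by -0.61 in KO-labelled cells (SE 0.10, adjusted p = 0.0182) and by -0.25 in WT cells (adjusted p = 0.159). P2ry13, a nucleotide receptor of microglia, rose by 0.41 in WT cells (SE 0.10, adjusted p = 0.0401), and Aif1, the gene of the macrophage protein Iba1, by 0.52 (SE 0.11, adjusted p = 0.0230). All 3 tested monocyte markers were higher after ischemia in both genotypes, with medians of 0.46 in KO-labelled cells and 0.45 in WT cells. Chil3 and F10 passed in WT cells, none passed in KO-labelled cells, and none passed in the interaction. In the mean over both genotypes Chil3 rose by 0.83 (adjusted p = 0.000516) and Itga4 by 0.41 (adjusted p = 0.00805), against 12.5% of all genes called. These values were not recomputed without single pairs.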
